A study of Mus musculus with 18 samples.

Results

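Tumors of R26 IGF2BP1/MYCN mice (TIM, 8 libraries) were set against normal adrenal glands (AG, 3 libraries) over the mature microRNAs (miRNAs) read in small RNA libraries. All 726 miRNAs of the 1966 listed that reached at least 1 CPM (the deposited read count, scaled to library size) in 3 or more of the 18 libraries were taken, and 11 of the 18 libraries belong to the groups compared. The tumors were labelled IMP1/MYCN, CRE + (IMP1 is another name of IGF2BP1), and 2 carried the source label of an adrenal tumor, 1 of a tumor at the spine and 5 of a tumor only. The adrenal glands were labelled CRE -, an organ of mice without the recombinase. The remaining 7 libraries are tumors with the IGF2BP1 transgene and no MYCN transgene (TI, CRE +, 6 labelled IGF2BP1 +/+ and 1 +/-), used here for the shared estimate of the spread and for 1 test of the difference between tumor types. In both tumor models a Dbh-driven iCre, active in cells of the sympatho-adrenal lineage, removes a stop cassette in front of the transgenes at the Rosa26 locus, neither of which carries its native 3′UTR, on a C57Bl6/N background. The labels give no age for either group. The adrenal glands are whole organs with cortex, medulla, vessels and capsule, while tumors grew at more than 1 site, so the tissues differ in their makeup from the start.

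Neuroblastoma arises from precursors of the sympathetic nervous system and the adrenal medulla, and many high-risk tumors carry extra copies of MYCN, a transcription factor of the MYC family. IGF2BP1 is an RNA-binding protein of fetal tissue and of tumors that shields mRNAs from miRNA-directed decay. A mature miRNA is a short RNA strand, cut from the 5′ (5p) or 3′ (3p) side of a hairpin, that guides Argonaute to mRNAs mainly by its seed, bases 2 to 8 from its 5′ end. MYC proteins are known to activate the miR-17/92 cluster and to repress a broad group of miRNAs of differentiated cells, LIN28 proteins block the maturation of let-7, and neurons and neuroendocrine cells carry miRNAs of their own.

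The mature sequences below are those of the miRNAs that lead the differences described later. They are printed 5′ to 3′ from RefSeq (GRCm38.p6, the same assembly as the mm10 build of the deposited table), with the seed in capitals. RefSeq entries were matched by name for 1675 of the 1966 miRNAs and for 630 of the 726 tested. The first set holds miRNAs that were higher in TIM. Among them miR-344d-3p and miR-410-3p, from loci on chromosomes 7 and 12, share 1 seed.
miR-344f-3p: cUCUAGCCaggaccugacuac
miR-344b-3p: cAUUUAGCcaaagccugacugu
miR-344-3p: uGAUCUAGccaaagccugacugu
miR-344d-3p: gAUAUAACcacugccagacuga
miR-410-3p: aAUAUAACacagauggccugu
miR-323-3p: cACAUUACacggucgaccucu
miR-758-3p: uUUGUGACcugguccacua
miR-370-3p: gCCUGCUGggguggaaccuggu
miR-9-5p: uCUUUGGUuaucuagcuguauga
miR-218-5p: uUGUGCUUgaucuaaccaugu
miR-3099-3p: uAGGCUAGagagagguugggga
miR-18a-5p: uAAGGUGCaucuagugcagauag
The hairpin of miR-344f-3p places it at chr7:62046183-62046203 (minus strand, hairpin gene Mir344f), and miR-323-3p lies at chr12:109712558-109712578 (plus strand, hairpin gene Mir323). The 3 genomic copies of miR-9-5p are on chromosomes 3, 7 and 13, and the 2 copies of miR-218-5p on chromosomes 5 and 11.

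The second set holds miRNAs called lower in TIM and, for several of them, a miRNA with the same seed that was not called. In each of the following pairs the miRNA that was not called is given second. The pairs are miR-10a-5p with miR-10b-5p, miR-152-3p with miR-148a-3p, and miR-27a-3p with miR-27b-3p, while both miR-221-3p and miR-222-3p were lower.
miR-10a-5p: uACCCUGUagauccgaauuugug
miR-10b-5p: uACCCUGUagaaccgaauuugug
miR-152-3p: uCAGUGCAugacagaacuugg
miR-148a-3p: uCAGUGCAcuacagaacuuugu
miR-27a-3p: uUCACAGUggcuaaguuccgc
miR-27b-3p: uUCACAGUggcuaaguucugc
miR-221-3p: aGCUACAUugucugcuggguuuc
miR-222-3p: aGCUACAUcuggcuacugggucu
miR-196a-1-3p: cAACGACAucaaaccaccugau
miR-3081-3p: uUGCGCUCcgaucucugagcugg
miR-365-3p: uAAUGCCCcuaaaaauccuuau
miR-126a-3p: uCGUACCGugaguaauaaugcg
miR-29a-3p: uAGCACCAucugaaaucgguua
let-7f-5p: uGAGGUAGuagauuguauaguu
The Hoxb cluster of chromosome 11 holds miR-10a-5p at chr11:96317186-96317208 (plus strand, hairpin gene Mir10a) and miR-196a-1-3p at chr11:96265225-96265246 (plus strand, hairpin gene Mir196a-1). The paralog miR-10b-5p lies in the Hoxd cluster at chr2:74726074-74726096 (plus strand, hairpin gene Mir10b).

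The AG libraries held 21644743 to 23332704 reads on miRNAs and the TIM libraries 11641696 to 23435621, so that a count of 3 reads stood for 0.139 to 0.140 CPM in AG and 0.101 to 0.209 CPM in TIM (counting error only). Column names give the group and not the animal, so the libraries are numbered here by column order and the site of a tumor cannot be tied to a library. Across the 726 miRNAs, log2(CPM + 1) correlated between AG libraries with Pearson's r of 0.980 to 0.996 (3 pairs), between TIM libraries with 0.905 to 0.987 (28 pairs), and between TIM and AG with 0.797 to 0.913. These values are a description across miRNAs, which are not independent. The miRNA miR-148a-3p alone took 4.19% to 6.94% of the reads in AG and 6.53% to 44.2% in TIM, and the TMM scaling factors held in the deposited values ran from 0.927 to 0.991 in AG and from 0.802 to 1.85 in TIM, so levels depend on the scaling. Marker miRNAs of striated muscle made up 2.75% of the library TIM 1 and at most 0.0238% of the other TIM libraries, and pancreas miRNAs made up 0.0224% of TIM 4 and at most 0.00132% of the others. Results for these marker miRNAs are given with and without the library. The neural miR-9-5p, miR-124-3p and miR-218-5p and the neuroendocrine miR-7a-5p and miR-375-3p were read in every TIM library, which carries the label of neuroblastoma. They were also read in every AG library, so their presence alone does not tell tumor from normal gland.

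Of the 726 miRNAs, 373 (51.4%) differed between TIM and AG at an adjusted p under 0.05 in limma on log2(CPM + 1), 185 of them (25.5%) higher and 188 (25.9%) lower in TIM. Every adjusted p below comes from that fit with Benjamini-Hochberg adjustment over all features tested, and every fold change is a difference of mean log2(CPM + 1), TIM minus AG, which understates the change of miRNAs with few reads. The median fold change of all tested miRNAs was 0.18. This median and the shares of 25.5% higher and 25.9% lower stand beside the counts of every list below. Changes of at least 2 on the log2 scale were found for 81 higher and 82 lower miRNAs, and of at least 3 for 36 and 27. The 2 groups did not overlap for 313 miRNAs (43.1%), with every TIM library above every AG library for 153 and below for 160, and 291 miRNAs were both called and without overlap. The split of the calls moved with the scaling. It was 204 higher and 141 lower without the TMM factor, which moved the median fold change to 0.41, and with miR-148a-3p excluded from the totals as well, 65.7% of 338 calls were higher and the median moved to 0.57. Without AG 1, the count of calls fell to 242, while leaving out another single library left between 284 and 381.

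**Figure D1:**
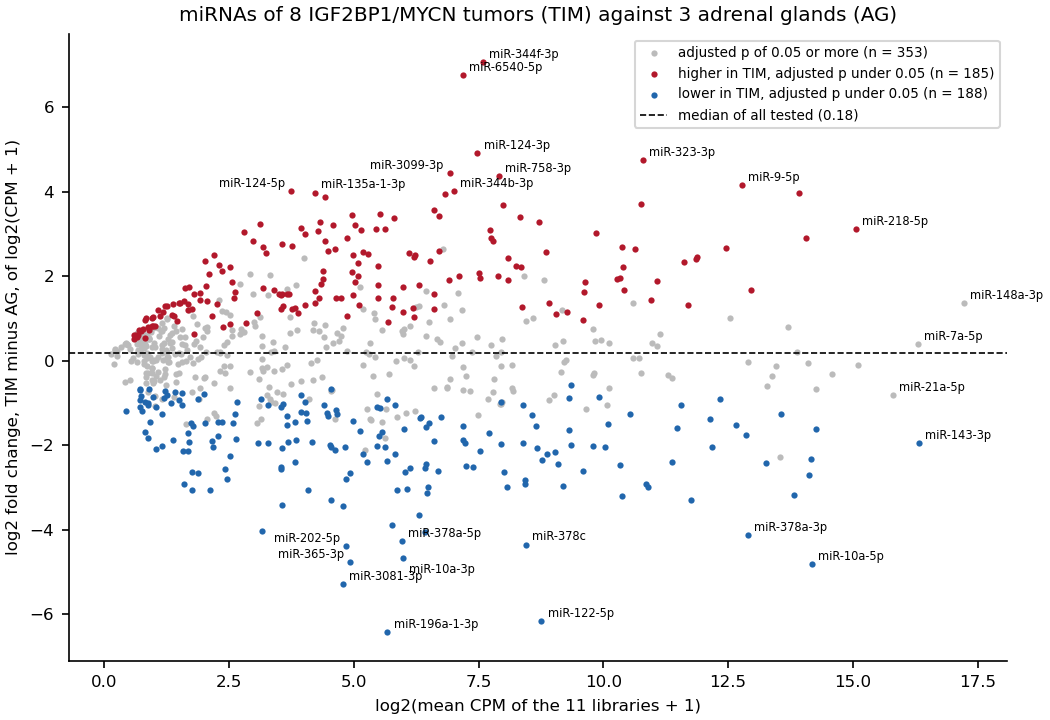
The log2 fold change (TIM minus AG, log2(CPM + 1) scale) of each of 726 tested miRNAs is plotted against the log2 of its mean CPM over the 11 libraries, and red and blue points mark adjusted p under 0.05. The 185 higher and 188 lower miRNAs spread over the whole range of abundance, from miR-344f-3p at 7.07 to miR-196a-1-3p at -6.44, around the dashed median of 0.18.

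Among called miRNAs that averaged 10 CPM or more and had no overlap between the groups, the 10 highest fold changes belonged to neural miRNAs, to members of the imprinted Dlk1-Dio3 locus and to a few others. The highest was that of miR-344f-3p, of a family known from brain. It had 0.324, 1.63 and 1.02 CPM in the 3 AG libraries and 177 to 408 CPM (median 242) in the 8 TIM libraries. Its fold change was 7.07 (standard error 0.50, adjusted p = 3.1e-09). Next came miR-6540-5p, at 0.231, 0.793 and 0.972 CPM in AG and 99.4 to 404 CPM (median 172) in TIM, with a fold change of 6.77 (standard error 0.88, adjusted p = 6.1e-06). Both lay near 1 CPM in every adrenal gland and far above it in every tumor. The neuronal miR-124-3p followed, at 2.17, 4.90 and 7.08 CPM in AG and 56.2 to 728 CPM (median 127) in TIM. Its fold change was 4.93 (standard error 0.80, adjusted p = 6.1e-05), and its passenger strand miR-124-5p rose by 4.01. The remaining 6 were miR-323-3p (4.76), miR-3099-3p (4.44), miR-758-3p (4.38), miR-9-5p (4.16), miR-344b-3p (4.03) and miR-135a-1-3p (3.98), with adjusted p from 2.4e-07 to 0.0082. Among these 10, the tumors differed most in miR-135a-1-3p, with 1.28 to 45.4 CPM (median 24.7) in TIM and 1 read in all 3 AG libraries together.

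The 10 lowest fold changes belonged to miRNAs of the Hox clusters, of liver and gonads, of the miR-378 and miR-365 families, and to miR-3081-3p of chromosome 16. miR-196a-1-3p, the 3p strand of a hairpin in the Hoxb cluster, had 287, 138 and 116 CPM in AG and 0.0895 to 4.27 CPM (median 0.883) in TIM, a fold change of -6.44 (standard error 0.52, adjusted p = 2e-08). The hepatocyte miRNA miR-122-5p had 2592, 1169 and 779.8 CPM in AG and 4.25 to 82.4 CPM (median 18.2) in TIM, with -6.16 (standard error 0.81, adjusted p = 7.2e-06). The library AG 1 was the highest of the 3 for both, as it was for miR-202-5p, a miRNA of the gonads that varied from 7.91 to 263 CPM within AG and had a fold change of -4.40 (standard error 0.72, adjusted p = 6.2e-05). By contrast, miR-378a-3p, whose hairpin lies in the gene of the metabolic coactivator Ppargc1b, was highest in AG 3. It had 13395, 21522 and 37812 CPM in AG and 576 to 2535 CPM (median 1568) in TIM and fell by 4.12 on the log2 scale (adjusted p = 7e-06). Its passenger strand miR-378a-5p (-4.28) and miR-378c (-4.36) moved with it, but miR-378c is nearly identical to miR-378a-3p and reads could be split between them. The others were miR-3081-3p (-5.30), miR-10a-5p (-4.81), miR-365-3p (-4.76) and miR-10a-3p (-4.69). All 20 of these miRNAs kept their direction and their adjusted p under 0.05 in each of the 10 other settings that tested them and with each library left out.

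**Figure D2:**
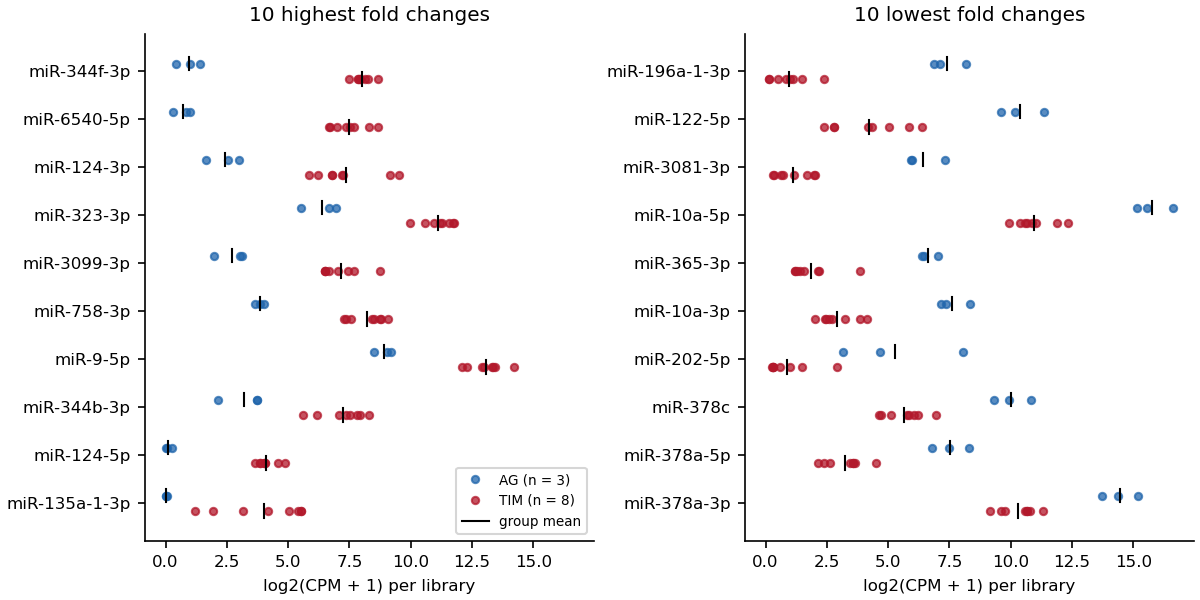
Each point is 1 library's log2(CPM + 1), with AG in blue (n = 3) and TIM in red (n = 8), for the miRNAs with the 10 highest and the 10 lowest fold changes, and black ticks mark group means. In every row the 2 groups are separate, as the rule required, and miR-202-5p spreads most within AG and miR-135a-1-3p most within TIM.

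Neuron-enriched miRNAs made up a larger part of the tumor libraries, with 5.73% to 10.7% of the reads in TIM against 0.543% to 1.32% in AG. Of the 36 of 46 members that could be tested, 17 were called higher and 1 lower, and the median fold change was 1.02 beside 0.18 for all tested miRNAs. With miR-128-2-5p, listed at 0 reads in AG, set to its bound against 3 reads, the median was 1.03. In bulk RNA, more cells of a type and more RNA per cell cannot be told apart, nor can fewer cells and less RNA per cell. Without AG 1 the count of calls was 11. In absolute terms miR-218-5p, enriched in motor neurons, contributed most. It had 2535, 6678 and 7540.2 CPM in AG and 27453 to 61319 CPM (median 48025) in TIM, with a fold change of 3.11 (standard error 0.34, adjusted p = 1e-06), and was the only neuron-enriched miRNA among the 5 most abundant of TIM. The neural progenitor miRNA miR-9-5p had 362, 524 and 582 CPM in AG and 4330.4 to 18823 CPM (median 9149) in TIM, and TIM 7 stood highest. The groups did not overlap for either of them. Smaller rises were seen for miR-128-3p (1.88, adjusted p = 0.0015), miR-138-5p (2.35, adjusted p = 0.0074, lost without AG 1) and miR-488-3p (2.08, adjusted p = 0.00023), which were chosen after their values were seen. The exception in the other direction was miR-219a-1-3p, at -1.10 (adjusted p = 0.013), a call that 2 other scalings did not give.

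The miRNAs of neuroendocrine cells are also those of the normal adrenal medulla. The 6 tested miR-7 and miR-375 members took 4.58% to 11.6% of the reads in AG and 6.38% to 20.3% in TIM, 1 of them was called higher and none lower, and their median was 0.29, which turned to -0.13 without AG 1. The call was that of the passenger strand miR-7a-1-3p (1.23, adjusted p = 0.020), chosen after its values were seen, and it was lost without AG 1, without AG 2 and without AG 3, which left 0 calls in the list. The guide strand miR-7a-5p had 35994, 81124 and 65879 CPM in AG and 31408 to 211250.1 CPM (median 72473) in TIM, with a fold change of 0.39 (standard error 0.63, adjusted p = 0.63), and the groups overlapped. For miR-375-3p the values were 8915, 26553 and 30587 CPM in AG and 405 to 18143 CPM (median 7471) in TIM, with -2.27 (standard error 1.11, adjusted p = 0.094).

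The miR-344 family, encoded in a cluster on chromosome 7, had the highest median fold change of the 34 lists with a tested member, 2.39, and 2.40 with the 2 members listed at 0 reads in AG set to their bounds. All 12 tested members of 19 had every TIM library above every AG library, beside 153 of all 726 tested miRNAs, and 11 of the 12 were called. The lists were chosen with earlier results of these data known, so this rank and these counts are a description only. The most abundant, miR-344-3p, had 211.4, 376 and 400.5 CPM in AG and 1319 to 3105 CPM (median 2097) in TIM and a fold change of 2.64 (standard error 0.29, adjusted p = 1.2e-06). The family as a whole took 0.0207% to 0.0412% of the reads in AG and 0.169% to 0.525% in TIM. Its seeds differ, as the printed sequences show, and so the members do not count as 1 seed family. The related miR-204 and miR-211, known from the retina and from pigment cells, had 3 of 3 tested members of their list called lower (median -0.68), but 0 without AG 1 or AG 3, 1 without AG 2, TIM 3, TIM 4, TIM 6, TIM 7 or TIM 8, and 0 in edgeR and DESeq2. miR-204-5p had 72.1, 149.9 and 154 CPM in AG and 0.850 to 152.1 CPM (median 7.91) in TIM, with overlap, and its call (-3.05 (standard error 1.22, adjusted p = 0.044)) was lost in 7 of 10 other settings. In the miR-181 family 4 of 9 tested members were called higher, beside 25.5% of all tested miRNAs, and none lower (median 1.10). The fold change was 1.32 for the most abundant, miR-181d-5p (adjusted p = 0.032), and 2.01 for miR-181c-3p (adjusted p = 0.0012). The count of calls was 1 when an AG library was left out, whichever of the 3 it was.

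The Dlk1-Dio3 locus on chromosome 12 holds the largest imprinted miRNA cluster of the mouse, expressed from the maternal chromosome and known from brain and embryo. It supplied 72 of the 185 miRNAs that were higher in TIM (38.9%). Of 111 members 99 were tested, 72 were called higher and 1 lower, and the median was 1.59. Among the other 627 tested miRNAs, 113 were higher and 187 lower, with a median of -0.03. The members took 5.62% to 10.03% of the reads in AG and 17.1% to 25.8% in TIM. The largest fold change was that of miR-323-3p, which had 45.2, 100.2 and 121 CPM in AG and 998 to 3476 CPM (median 2416) in TIM, with 4.76 (standard error 0.49, adjusted p = 4e-07). It was followed by its neighbour miR-758-3p, with 11.4, 13.5 and 15.04 CPM in AG and 155 to 536 CPM (median 349) in TIM. Abundant members that rose, chosen here after their values were seen, were miR-381-3p, from 2962 ± 949 CPM (SD, n = 3) to 22541 ± 8079 CPM (SD, n = 8), and miR-370-3p, from 1296 ± 372 CPM to 20943 ± 8244 CPM.

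The rise did not include the 3 members that were most abundant in AG. The first of them, miR-127-3p, had 25015, 39296 and 38879 CPM in AG and 14486 to 67287 CPM (median 28269.6) in TIM, with a fold change of -0.10 (standard error 0.43, adjusted p = 0.87), and its sign turned under other scalings. Neither miR-411-5p (-0.11, adjusted p = 0.82) nor miR-379-5p (0.21, adjusted p = 0.63) passed, both chosen after their values were seen. The 3 members from the miR-299 hairpins had the lowest fold changes (-0.75, -0.72 and -1.09), and miR-299b-3p, whose hairpin lies on the strand opposite to that of miR-299a, was the single call in the lower direction (adjusted p = 0.022). That call was lost with a pseudocount of 5, with miR-148a-3p excluded from the totals and without AG 3 (adjusted p of up to 0.16). Of the 5p strands 32 of 48 were called higher and of the 3p strands 40 of 51. The plot along the locus shows members with high and with low fold changes next to each other, and often on the same hairpin.

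**Figure D3:**
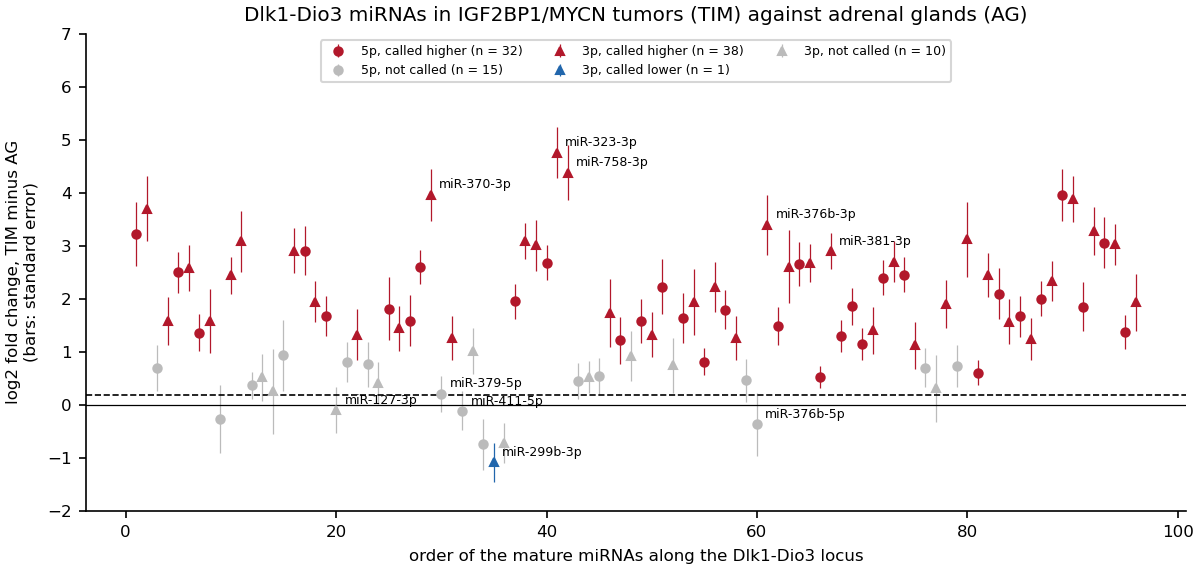
The 96 tested Dlk1-Dio3 miRNAs with a RefSeq position are ordered along the locus by rank, with the log2 fold change (TIM minus AG) and its standard error, circles for 5p and triangles for 3p strands, and the dashed line at the median of all tested miRNAs. Most points lie above 1, with miR-323-3p at 4.76, while miR-127-3p, miR-379-5p, miR-411-5p and the miR-299 strands lie near or below 0.

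Other imprinted miRNAs moved less uniformly. In the list of Igf2, H19, Mest and Nespas miRNAs 4 of 7 tested members were higher and none lower (median 1.62). These were miR-296-3p, miR-296-5p and miR-298-5p from the Nespas transcript of chromosome 2 and miR-335-3p from an intron of Mest. miR-296-3p had 22.1, 38.5 and 39.7 CPM in AG and 65.4 to 476 CPM (median 306) in TIM (2.83 (standard error 0.61, adjusted p = 0.00092)), and miR-335-3p, the most abundant of the list, 244, 303 and 234 CPM and 348 to 2256 CPM (median 843) (1.62 (standard error 0.49, adjusted p = 0.011)). The miRNAs of the Sfmbt2 intron, a large repeated cluster known from the placenta whose members resemble each other and may share reads, had 32 of 80 members tested, 4 called higher, beside 25.5% of all tested miRNAs, and a median of 0.54. The count was 1 to 5 over the other settings and 0 to 6 with 1 library left out, with 0 without AG 1, without AG 2 or without AG 3, 1 without TIM 3 or TIM 7 and 2 without TIM 4 or TIM 6. Its leading member miR-467a-5p overlapped, with 128, 162 and 157 CPM in AG and 61.9 to 822 CPM in TIM (0.52 (standard error 1.07, adjusted p = 0.71)). None of the 28 members of the embryonic stem cell clusters miR-302 to miR-367 and miR-290 reached the filter. Their summed level was at most 2.59 CPM in AG and 2.32 CPM in TIM.

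The miR-17/92 cluster, a transcriptional target of MYC and MYCN, was higher in most tumors and not in all. It took 0.0646% to 0.107% of the reads in AG and 0.0594% to 1.02% in TIM, with a TIM median of 0.316%. These sums include miR-92a-3p, which has 2 genomic copies, on chromosomes 14 and X, and its reads cannot be assigned to either copy. Of 11 tested members 7 were called higher, beside 25.5% of all tested miRNAs, and none lower, and the median was 1.48. miR-18a-5p had 3.65, 1.59 and 1.34 CPM in AG and 4.11 to 95.9 CPM (median 40.7) in TIM, with 3.21 (standard error 0.84, adjusted p = 0.0044), and was the 1 member without overlap between the groups. For miR-92a-3p, the most abundant member, the values were 783, 501 and 526 CPM in AG and 419 to 3073 CPM (median 2433) in TIM, with 1.37 (standard error 0.60, adjusted p = 0.064), but the lowest tumor lay below all 3 AG libraries. miR-92a-3p was called higher without the TMM factor, with miR-148a-3p excluded from the totals, in edgeR, in DESeq2, and without TIM 2 or TIM 5. The count of calls in the cluster depended on the libraries. It ranged from 3 to 9 over the other settings and from 1 to 9 when 1 library was left out, and it was 1 without AG 1, 2 without AG 2, 1 without AG 3 and 4 without TIM 3, TIM 4, TIM 6, TIM 7 or TIM 8. In the paralog clusters miR-106a to miR-363 and miR-106b to miR-25, 1 of 9 tested members was higher and 1 lower (median 0.64). miR-25-3p, the most abundant of them, (0.64, adjusted p = 0.30) and miR-106b-5p (1.33, adjusted p = 0.13) did not pass. Both were called higher without TIM 2, and miR-106b-5p also in DESeq2. miR-363-3p, the lower one and chosen after its values were seen, fell by 1.45 on the log2 scale (adjusted p = 0.021), but this call was lost under 2 other scalings, in edgeR and without AG 1 (adjusted p of up to 0.15). Over the other settings the paralog clusters gave 1 to 4 calls, and with 1 library left out 0 (without AG 1) to 4 (without TIM 2).

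The let-7 family, which holds back proliferation and targets Lin28, Hmga2 and Igf2bp1 mRNAs, was lower in part. Its guide strands took 8.56% to 11.2% of the reads in AG and 4.65% to 9.62% in TIM. Of 11 tested guide strands 5 were called lower, beside 25.9% of all tested miRNAs, and none higher (median -0.80). let-7f-5p, the most abundant in AG, had 45783, 36957 and 31520.0 CPM there and 8052 to 16661 CPM (median 13318) in TIM, with -1.62 (standard error 0.30, adjusted p = 0.00021). The groups did not overlap for it, nor for let-7d-5p (-1.63, adjusted p = 0.00027). Other members with the same seed did not pass the test. let-7i-5p, chosen after its values were seen, had 17595 ± 521 CPM in AG (SD, n = 3) and 17456 ± 4429 CPM in TIM (SD, n = 8), a fold change of -0.057 (standard error 0.26, adjusted p = 0.87), and let-7c-5p one of -0.37 (adjusted p = 0.26), with signs that turned when miR-148a-3p was excluded from the totals. Guide strands differ by few bases, so the split of their reads is uncertain. The sum over all miRNAs with the let-7 seed GAGGUAG, chosen after its values were seen, does not depend on that split. It was 119460, 99611 and 90531 CPM in AG and 45091 to 67698 CPM (median 55862) in TIM, without overlap. Its fold change was -0.89 (standard error 0.22, adjusted p = 0.0028), and its value under other scalings is not given here. Of the passenger strands, which differ more in sequence, 7 of 11 were lower and none higher (median -1.17), with let-7e-3p at -1.89 (adjusted p = 0.00037) and let-7d-3p at -1.54 (adjusted p = 0.00011). Over the other settings the passenger strands gave 3 to 8 calls, and without AG 1 they gave 4.

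A list of 40 miRNAs known to be repressed by MYC, with let-7 left out, moved in 1 direction. Of the 35 tested, 23 were called lower and none higher, the median was -1.56, and the list fell from 9.78% to 12.03% of the reads in AG to 1.69% to 5.77% in TIM. miR-26a-5p, the most abundant, had 48715, 37679.6 and 38311 CPM in AG and 3911 to 16961 CPM (median 7299) in TIM, with -2.32 (standard error 0.46, adjusted p = 0.00038). miR-30a-5p (-2.41, adjusted p = 3.3e-06), miR-22-3p (-3.30, adjusted p = 0.00016) and miR-29a-3p (-2.99, adjusted p = 0.012), which were chosen after their values were seen, were among the others, and the call of miR-29a-3p was not made by edgeR. The largest change was that of miR-150-5p, a miRNA of mature lymphocytes, with 216, 131 and 146 CPM in AG and 4.07 to 26.3 CPM (median 9.22) in TIM and -3.90 (standard error 0.71, adjusted p = 0.00018). The list therefore overlaps with markers of other cell types, and none of its miR-15/16 members passed, with -0.021 for miR-16-5p (adjusted p = 0.95), a sign that turned under other scalings.

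In the p53-induced miR-34 family 2 of 6 tested members were lower, a share near that of all tested miRNAs (25.9%). miR-34b-5p had 36.2, 20.7 and 18.7 CPM in AG and 2.71 to 10.3 CPM (median 4.66) in TIM (-2.07 (standard error 0.34, adjusted p = 6.5e-05)). The call of miR-34c-5p (-0.86 (standard error 0.35, adjusted p = 0.045)) was lost in 4 of 10 other settings and without AG 1, AG 2, TIM 1, TIM 3, TIM 4, TIM 6 or TIM 7, each of which left 1 call in the list. miR-221 and miR-222, which target the cell cycle inhibitor p27, were among the strongest decreases, and all 4 strands were called. miR-222-3p had 279, 232 and 199 CPM in AG and 8.95 to 37.7 CPM (median 17.6) in TIM, with -3.66 (standard error 0.49, adjusted p = 7.7e-06), and miR-221-3p went with it (-2.64, adjusted p = 0.00022). For miR-21a-5p, a miRNA known to be high in many tumors, the values were 121536, 58691 and 68786 CPM in AG and 25892 to 69831 CPM (median 47673) in TIM, with -0.82 (standard error 0.55, adjusted p = 0.23), and the groups overlapped.

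The hairpins of the miR-10 and miR-196 families lie in the Hox clusters, which carry positional identity along the body axis. The miR-10 family held 4.96% to 13.2% of the reads in AG and 0.969% to 6.41% in TIM. Its Hoxb member miR-10a-5p was among the 5 most abundant miRNAs of AG, with 101577, 47637 and 35995 CPM, and had 984 to 5142 CPM (median 1737) in TIM, a fold change of -4.81 (standard error 0.64, adjusted p = 7.5e-06). The Hoxd member miR-10b-5p, whose mature sequence shares the seed and differs in few bases, had 40549, 22394 and 16642 CPM in AG and 8213 to 34309 CPM (median 14667) in TIM, with -0.66 (standard error 1.11, adjusted p = 0.64). Thus TIM and AG were separate for miR-10a-5p and overlapped for miR-10b-5p. The passenger strands, which are less alike, gave the same picture, with -4.69 for miR-10a-3p (adjusted p = 8e-07) and -0.79 for miR-10b-3p (adjusted p = 0.50). The difference between the members was not tested.

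In the miR-196 and miR-615 list 3 of 6 tested members were lower. Besides miR-196a-1-3p these were miR-196a-5p (-2.65, adjusted p = 0.034) and the Hoxc miRNA miR-615-3p, with 687, 723 and 776 CPM in AG, 3.58 to 574 CPM (median 137) in TIM and -2.92 (standard error 1.02, adjusted p = 0.024). The last 2 of these calls were each lost without any 1 of the AG libraries. The miR-99/100 and miR-125 families, whose hairpins neighbour let-7 hairpins, held 5.74% to 6.80% of the reads in AG and 1.57% to 3.36% in TIM. Of 10 tested members 7 were lower and none higher (median -1.005), but 3 were called without AG 1 and 3, 1 of them higher, with miR-148a-3p excluded from the totals. miR-99a-5p had 47651, 37151 and 38185 CPM in AG and 588 to 19560.2 CPM (median 8997) in TIM, a fold change of -2.70 (standard error 0.82, adjusted p = 0.011), and its adjusted p was 0.051 without AG 1. The member with the highest fold change, miR-125b-1-3p, had 1.20 (adjusted p = 0.054), while the strand miR-125b-5p, made from 2 loci, was called lower at -1.05 (adjusted p = 0.021). Neither of these results was stable. The call of miR-125b-5p was lost in 3 of 10 other settings and without AG 1, AG 2 or AG 3, and miR-125b-1-3p was called in 6 of 10 other settings and without TIM 2 or TIM 4.

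Markers of other cell types that an adrenal gland or a tumor can hold were mostly lower in TIM. The endothelial miR-126 members summed to 3.66% to 4.33% of the reads in AG and 0.287% to 1.01% in TIM, and 3 of 3 tested were lower (median -2.97). miR-126a-3p had 38020.1, 37016 and 44387 CPM in AG and 2314 to 8581 CPM (median 4216) in TIM, with -3.18 (standard error 0.45, adjusted p = 1.3e-05). miR-126b-3p, read from the opposite strand of the same locus, had 23 to 36 reads in the AG libraries and none in any TIM library, which makes it at least 6.29-fold lower against 3 reads in each TIM library. The smooth muscle miRNAs of the cluster of miR-143 and miR-145 summed to 11.3% to 19.7% in AG and 2.96% to 9.67% in TIM, and 4 of 4 were lower (median -2.05), with 1 of them called without AG 2 and 2 without AG 3. miR-143-3p, the most abundant miRNA of AG 2 and AG 3, had 120747, 174319 and 208704 CPM and 15989 to 100922 CPM (median 47991) in the 2 groups, with -1.96 (standard error 0.63, adjusted p = 0.016), but the call was lost without AG 2 or without AG 3, with an adjusted p of up to 0.072. Of the stromal miR-199 and miR-214 members 4 of 6 were lower (median -1.98), with 0.259% to 0.379% of the reads in AG and 0.0441% to 0.220% in TIM. These lower marker levels stand beside the lower let-7, MYC-repressed, miR-221 and miR-222 and Hox cluster miRNAs, and their part in those results was not tested.

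Leukocyte miRNAs were split. Of 10 tested, 6 were lower and 2 higher (median -1.43), beside 25.9% and 25.5% of all tested miRNAs, with 5 called without AG 1 or AG 3. Their sum was 0.0720% to 0.105% of the reads in AG and 0.0300% to 0.1005% in TIM. The lower ones were both strands of miR-142a, miR-150 and miR-223, while miR-342-3p, from an intron of Evl, was higher at 1.91 (adjusted p = 0.0011) together with its passenger strand at 1.48 (adjusted p = 0.0016). miR-146a-5p had -1.28 (adjusted p = 0.069). None of the 6 erythroid miRNAs, which follow the blood left in a tissue, was called, with sums of 0.0842% to 0.283% in AG and 0.0339% to 0.549% in TIM, and miR-451a at -1.14 (adjusted p = 0.30). Of the epithelial miRNAs the 3 of the miR-203 hairpins were lower and the 8 tested of the miR-200 family and miR-205 did not pass, so that 3 of 11 were lower beside 25.9% of all tested miRNAs. miR-203-3p had 1107, 1182 and 1711 CPM in AG and 159 to 366 CPM (median 243) in TIM, with -2.44 (standard error 0.42, adjusted p = 9.7e-05).

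All 6 tested miRNAs of liver, kidney and gut were lower (median -1.89; 3 with miR-148a-3p excluded from the totals), with sums of 0.338% to 0.656% of the reads in AG, highest in AG 1, and 0.0412% to 0.113% in TIM. miR-192-5p, of kidney and gut, led them with 4277, 2676 and 2628 CPM in AG and 323 to 894 CPM (median 542) in TIM (-2.47 (standard error 0.40, adjusted p = 5e-05)). The pancreas miRNA miR-217-5p was lower at -3.44 (adjusted p = 0.023), although TIM 4 held 129 CPM, more than any AG library, and the other 7 tumors at most 7.97 CPM. Without TIM 4 the fold change was -4.13 (adjusted p = 0.0012). Without any 1 of the AG libraries, and in edgeR (-1.40, adjusted p = 0.49), that call was lost. Of the 4 tested pancreas miRNAs 2 were called lower, 4 without TIM 4, and 0 without any 1 of the AG libraries. The striated muscle miR-1a-3p lay between 173 and 203 CPM in AG and reached 22257 CPM in TIM 1, with a fold change of 0.34 (adjusted p = 0.83) that turned to -0.59 without TIM 1. None of the 4 striated muscle miRNAs was called.

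**Figure D4:**
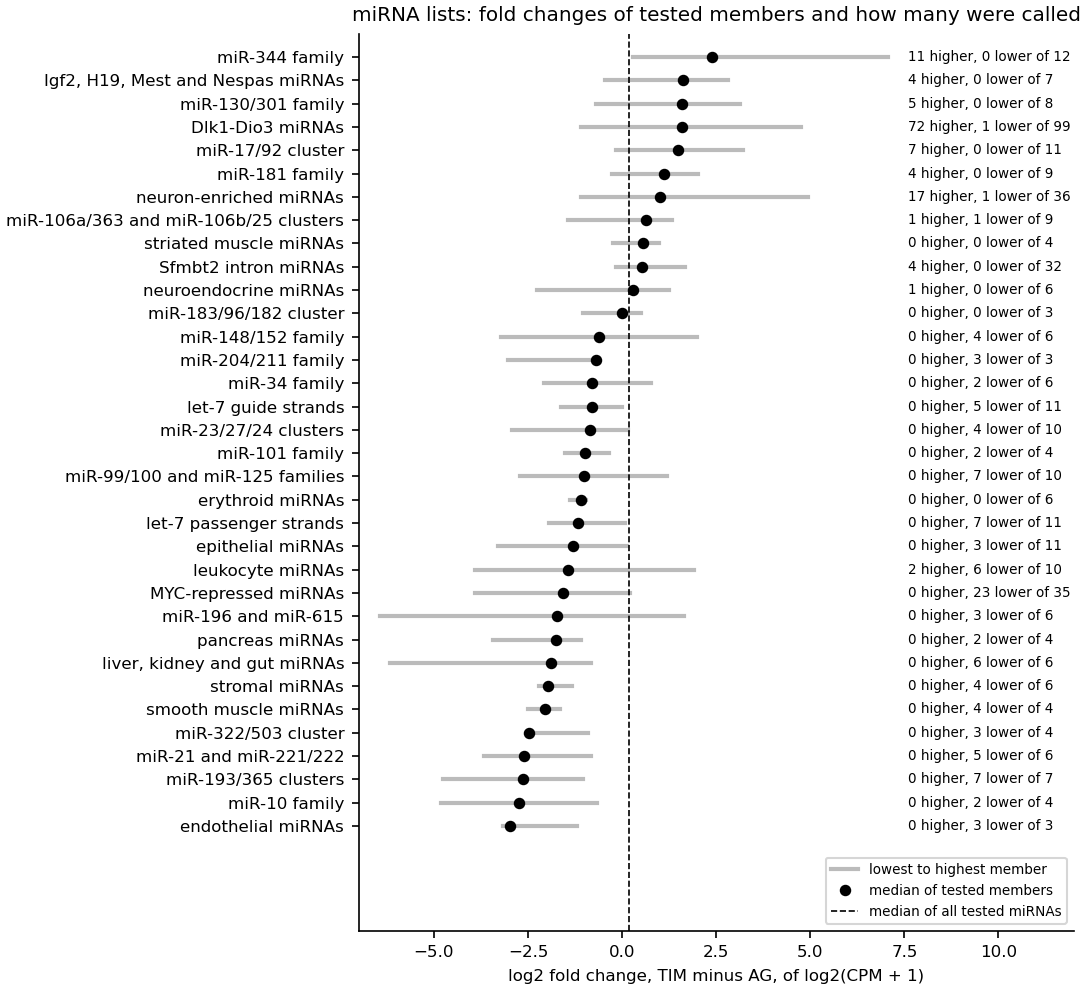
For each of the 34 lists with a tested member, the grey line spans the log2 fold changes (TIM minus AG) of its tested members, the point is their median and the dashed line the median of all 726 tested miRNAs at 0.18, with the counts of higher and lower calls at the right. The miR-344 family has the highest median (2.39) and the endothelial miRNAs the lowest (-2.97).

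The order of the most abundant miRNAs differed in part. miR-148a-3p had 74849.6, 42331 and 52312 CPM in AG and 49778 to 551329 CPM (median 158779.8) in TIM, and the fold change of 1.36 (standard error 0.85, adjusted p = 0.19) did not pass, and the groups overlapped. Its homologs with the same seed were lower. miR-152-3p had 3191, 3593 and 4067 CPM in AG and 211.4 to 991 CPM (median 292) in TIM, with -3.21 (standard error 0.58, adjusted p = 0.00017), and miR-148b-3p had -0.57 (adjusted p = 0.025), which turned to 0.026 and was not called with miR-148a-3p excluded from the totals, and was not called without AG 1 or AG 3. The 5 most abundant miRNAs of AG by group mean were miR-143-3p, miR-21a-5p, miR-10a-5p, miR-7a-5p and miR-148a-3p, and in TIM miR-218-5p stood in the place of miR-10a-5p. miR-10a-5p fell from 3.38% to 9.42% of the reads in AG to between 0.122% and 0.675% in TIM, while miR-218-5p went from at most 0.708% to between 3.28% and 6.58%.

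Several families contained members that were called and others that were not. In the miR-23/27/24 clusters, the transcript of chromosome 8 gave 4 lower calls and that of chromosome 13 none. miR-27a-3p had 3796, 4408 and 5743 CPM in AG and 281 to 1972 CPM (median 424) in TIM, with -2.93 (standard error 0.59, adjusted p = 0.00044). miR-27b-3p, with the same seed, had 28527, 24638 and 26789 CPM and 12032 to 51721 CPM (median 20212), with -0.32 (standard error 0.36, adjusted p = 0.47), a sign that turned under other scalings. All 7 tested members of the clusters of miR-193 and miR-365, known from brown fat and muscle, were lower (median -2.64). miR-365-3p had 129, 81.9 and 86.5 CPM in AG and 1.30 to 13.2 CPM (median 1.79) in TIM, with -4.76 (standard error 0.51, adjusted p = 6.6e-07), and TIM 2 was the highest tumor. The X-linked cluster of miR-322 and miR-503 was lower for 3 of 4 members (median -2.46), with miR-322-3p at -2.53 (adjusted p = 2.1e-05) and miR-503-3p at -2.56 (adjusted p = 7.5e-06). In the miR-101 family 2 of 4 were lower, beside 25.9% of all tested miRNAs, with miR-101a-3p at -1.52 (adjusted p = 0.00013). In contrast, 5 of 8 members of the family of miR-130 and miR-301 were higher (median 1.60). miR-301b-5p had 0.416, 0.699 and 0.602 CPM in AG and 1.08 to 45.2 CPM (median 14.7) in TIM, with 3.13 (standard error 0.78, adjusted p = 0.0030), and the most abundant of the family, miR-130b-5p, had 1.59 (adjusted p = 0.17).

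A further 139 of the 373 calls belonged to no list. The most abundant of them, named here after their values were seen, were lower in TIM. miR-139-5p fell from 1952 ± 281 CPM (SD, n = 3) to 336 ± 137 CPM (SD, n = 8), by 2.62 on the log2 scale (adjusted p = 7e-05), and miR-191-5p from 1997 ± 225 CPM to 745 ± 290.5 CPM. The hypoxia-induced miR-210-3p was lower as well, at -1.90 (adjusted p = 0.0055), though not called with miR-148a-3p excluded from the totals. Among the higher ones, miR-149-5p rose from 307 ± 61.7 CPM to 732 ± 342 CPM, with 1.15 (standard error 0.34, adjusted p = 0.010), a call lost without AG 1.

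The balance of the 2 strands of a hairpin is a further readout. For each of 212 hairpins with both strands tested, the ratio log2((5p CPM + 1)/(3p CPM + 1)) was compared, and 50 (23.6%) differed between TIM and AG, 18 toward the 5p and 32 toward the 3p strand, with 72 at an unadjusted p under 0.05. A filter of 10 CPM gave 27 of 129, and leaving out 1 library 31 to 55, with 31 without AG 1. The ratio of miR-376b, of the Dlk1-Dio3 locus, had 2.41, 2.25 and 1.98 in the AG libraries and -3.06 to -0.020 (median -1.70) in TIM, a difference of -3.77 (standard error 0.53, adjusted p = 3.5e-05). Its 3p strand rose from 35.1 to 429 CPM on average, while the 5p strand had 159 and 149 CPM, so that the 3p strand became the larger one. miR-376 members are closely alike, and their reads may be split among them. The ratios of miR-154 (-2.39), miR-431 (-1.98), miR-181c (-1.95) and miR-370 (-1.36) also moved toward the 3p strand (adjusted p from 0.0050 to 0.035). Of these calls, that of miR-370 was lost without each of AG 1, AG 2 and AG 3, that of miR-431 without AG 2 or AG 3, and that of miR-181c without each AG library and without TIM 3, TIM 6, TIM 7 or TIM 8. In miR-370 both strands rose and the 3p strand rose more.

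Toward the 5p strand, miR-674 moved by 1.82 (standard error 0.39, adjusted p = 0.0021) and miR-127 by 1.78 (standard error 0.34, adjusted p = 0.00084). In miR-127 the passenger 5p strand rose from 512 to 1686 CPM, whereas the 3p strand had 34396 and 35321 CPM. The ratio lay between -6.17 and -5.96 in AG and between -4.84 and -3.63 in TIM, without overlap. miR-134 (1.33), let-7e (1.01) and miR-433 (0.96) followed, with the call of miR-134 lost without AG 1 or AG 3 and that of miR-433 without AG 1 and with a pseudocount of 5. The strand with more reads differed between the group means for 17 hairpins, 6 of them called, namely miR-376b, miR-181c, miR-485, miR-380, miR-466b and miR-1941. Of 46 Dlk1-Dio3 hairpins with both strands tested, 18 had a called ratio, 14 of them toward the 3p strand, and their median was -0.31 beside -0.09 for all 212.

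**Figure D5:**
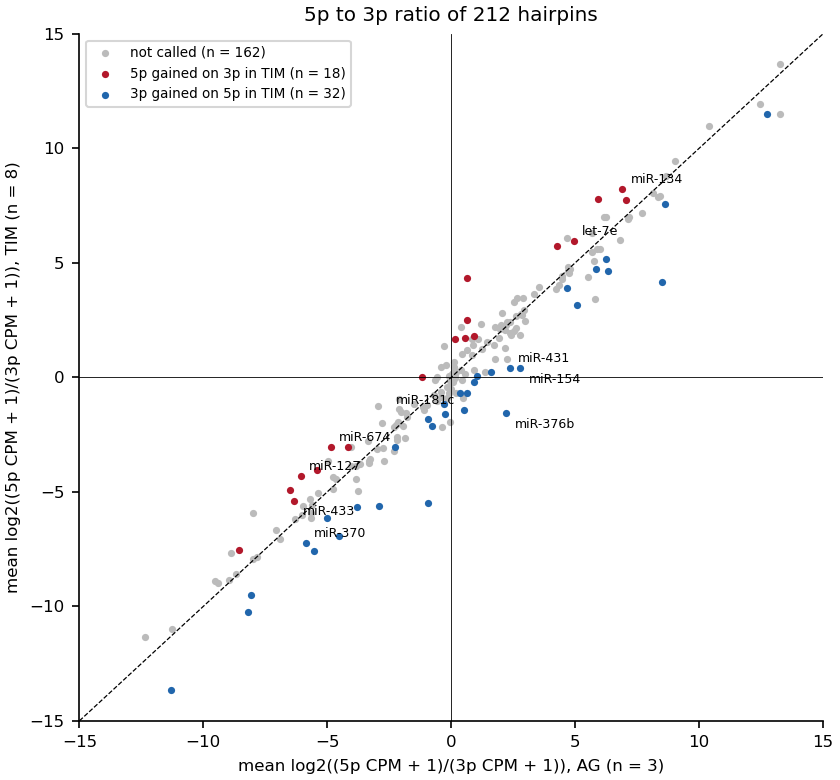
For 212 hairpins the mean log2 ratio of the 5p to the 3p strand in TIM (n = 8) is plotted against that in AG (n = 3), with the diagonal dashed, hairpins that gained 5p in red (18) and those that gained 3p in blue (32). Most hairpins lie near the diagonal, and miR-376b falls from above 0 in AG to below 0 in TIM.

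Because targets are recognised by the seed, reads were also summed over all miRNAs that share one, using the printed reference sequences. A read split wrongly between members that share a seed does not alter such a sum. Of 122 seeds, 47 (38.5%) differed, 23 higher and 24 lower in TIM, with 63 at an unadjusted p under 0.05. The lowest fold change was that of the seed GCUACAU of miR-221-3p and miR-222-3p, at 474, 385 and 339 CPM in AG and 25.1 to 101 CPM (median 43.1) in TIM, with -3.18 (standard error 0.49, adjusted p = 4.6e-05). Among seeds that averaged 100 CPM or more, it was followed by AUGUGCC of miR-455-5p (-2.997) and by AGCACCA of miR-29, which had 4104, 4630.2 and 4777 CPM in AG and 153 to 4028 CPM (median 369) in TIM, with -2.98 (standard error 0.92, adjusted p = 0.015), a call lost in edgeR and without AG 3. UGCCUAC of miR-24-2-5p (-2.66) and UGACCUA of miR-192-5p (-2.47) came next. At the other end stood GGCUCUG of miR-760-3p, with 7.35, 14.45 and 14.4 CPM in AG and 109 to 192 CPM (median 131) in TIM and 3.43 (standard error 0.32, adjusted p = 4.6e-07).

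The seed AUAUAAC, shared by miR-410-3p of chromosome 12 and miR-344d-3p and miR-344e-3p of chromosome 7, had 92.8, 170.4 and 207 CPM in AG and 749 to 1831 CPM (median 1392) in TIM, with 3.11 (standard error 0.36, adjusted p = 2.4e-06). miR-410-3p gave 90.1% of its CPM. The seed UGUGCUU, 100% of it from miR-218-5p, rose by 3.11, GAUCUAG of miR-344-3p and miR-344c-3p by 2.64, and GGUCAGA of miR-540-3p by 2.44 (adjusted p from 1.3e-06 to 2.1e-05). All 5 had every tumor above every adrenal gland. miRNAs with a reference sequence held 71.4% to 97.7% of the CPM of a library, so the sums leave out a part of each profile.

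The tumors differed from each other more than the adrenal glands did. The SD of log2(CPM + 1) was larger in TIM than in AG for 636 of 726 miRNAs, with medians of 0.619 and 0.266. In the sensory cluster of miR-183, miR-96 and miR-182, miR-183-5p and miR-182-5p had the highest SDs in TIM (3.70 and 3.69). miR-182-5p had 587, 228 and 321 CPM in AG and ranged in TIM from 6.79 CPM in TIM 3 to 7806 CPM in TIM 7, with 786, 995 and 982 CPM in TIM 1, 2 and 5. Its neighbours miR-183-5p and miR-96-5p were highest in the same 4 tumors. None of the 3 was called, and the fold change of miR-182-5p was -1.05 on log2(CPM + 1) and 1.82 in edgeR, that of miR-96-5p -0.0043 and 1.39. The Hoxa miRNA miR-196b-5p had 2.13, 3.08 and 6.62 CPM in AG and reached 568 and 343 CPM in TIM 3 and TIM 6, the 2 tumors with the lowest miR-182-5p, against at most 11.7 CPM in the other 6. The muscle miRNA miR-206-3p lay under 1 CPM in every library of both groups but TIM 1, where it had 455 CPM.

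TIM was set against TI in the same fit, to see which differences from the adrenal gland also separated the 2 tumor types. In R26 IGF2BP1/MYCN mice, 1 Rosa26 allele carries IGF2BP1 and the other MYCN, while most TI tumors were labelled IGF2BP1 +/+. The paper also reports shorter survival and other tumor sites for the double transgenic mice. MYCN, IGF2BP1 dose, age and site can therefore not be told apart in this comparison. At an adjusted p under 0.05, 38 of the 726 miRNAs (5.23%) differed, and 29 of these were not called against AG. Both comparisons use the TIM libraries, so their values are given side by side only. There were 8 miRNAs called with the same sign in both, 6 higher and 2 lower, and the count ran from 1 to 43 over the other settings. miR-760-3p had 7.35, 14.45 and 14.4 CPM in AG, 42.7 to 103 CPM in TI and 109 to 192 CPM (median 131) in TIM. Its fold change was 3.43 against AG and 1.02 against TI (standard error 0.25, adjusted p = 0.019), and no group overlapped with another. miR-203-3p was lower in TIM than in both, by 2.44 and 1.53 on the log2 scale (adjusted p = 9.7e-05 and 0.0077).

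The 4 Sfmbt2 members, miR-467a-3p, miR-466b-3p, miR-466c-3p and miR-466e-3p, and miR-12194-3p were higher in both. The calls of the 4 against AG were each lost without AG 1, without AG 2 and without AG 3, and miR-467a-3p was called in 5 of 10 other settings and miR-466b-3p and miR-466c-3p in 5 of 9. The call of miR-12194-3p against AG held in all 10 and with each library left out. The low level of miR-467a-3p in AG (1.71, 2.84 and 2.27 CPM) came close to the lowest tumor (2.89 to 34.0 CPM (median 9.49) in TIM). miR-196a-5p had 95.8, 48.3 and 45.2 CPM in AG, 17.7 to 417 CPM in TI and 0.134 to 70.6 CPM (median 9.78) in TIM, and differed by -4.503 from TI (adjusted p = 0.0014). A single miRNA, miR-344d-3-5p, was called with opposite signs, at 2.21 against AG and -2.06 against TI (adjusted p = 0.0063 and 0.013), the first of which was lost with a pseudocount of 5. For the other 364 miRNAs called against AG, a difference from TI was not detected, and the test does not show that the 2 tumor types are alike.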

How the data were processed

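Per the labels, small RNA libraries were made from about 30 mg of tissue extracted with TRIzol, one library per tumor or adrenal gland. Per the submitters' processing notes, adapters were removed with cutadapt 2.8, reads were mapped to mm10 with Bowtie2 2.3.5.1, counted with featureCounts 2.0.0 and scaled with edgeR 3.40; the handling of reads that match several miRNAs is not given in the sources used here. The authors deposited 1 table of 1966 miRNAs in 18 libraries, whose values are a signal in CPM on the TMM-scaled library size. Its columns of the authors' own comparisons (fold changes, p-values and FDR) were not used. In every column 100% of values were whole multiples of the worth of 1 read (tolerance 0.05 reads), which gave back reads and TMM factors. No library pair within a group held identical values.

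Groups were taken from the sample labels and tied to columns by the group in the column name. The 726 miRNAs with at least 1 CPM in 3 or more libraries were tested as log2(CPM + 1) with limma 3.58.1 (empirical Bayes with a mean trend, R 4.3.3), all 18 libraries in 1 fit, with Benjamini-Hochberg adjustment and a threshold of 0.05, two-sided. Ratios of 5p to 3p strands (212 hairpins with both strands passing the same filter) and sums over shared seeds (122) were tested likewise. Scripts were tested on simulated data. The smallest two-sided p that an exact permutation of 8 against 3 libraries can give is 0.012. The labels do not say that replicates are littermates or that each comes from its own animal, beyond separate samples. The paper reports more tumors than mice of the R26 IGF2BP1/MYCN model, so several TIM libraries may come from 1 animal. All libraries were tested as independent, so p-values measure the spread between these samples and not surely that between animals.

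The members and the 35 miRNA lists were chosen with earlier results of these data known. Named were the 10 highest and 10 lowest fold changes among called miRNAs averaging 10 CPM or more without overlap; in each list the most abundant member and, among members with at least 10 CPM, the one with the largest change; the 5 most abundant miRNAs of each group; the 5 largest falls and rises of strand ratios (both strands at 10 CPM or more) and of seeds (100 CPM or more); the 5 most variable miRNAs among tumors; and up to 5 in each direction called with the same sign against AG and against TI. Other miRNAs are said to be chosen after their values were seen, or are members named to describe a count. Sequences came from RefSeq (GRCm38.p6). Alternatives were pseudocounts of 0.1 and 5, no filter, a filter of 10 CPM, CPM without TMM, median ratio scaling, totals without miR-148a-3p, a fit of AG and TIM only, edgeR 4.0.16 and DESeq2 1.42.0 on the recovered reads, and leaving out each library. Python 3.11.15, pandas 2.3.3 and matplotlib 3.10.9 were used.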

Additional observations from a re-analysis of the deposited data

Results flagged for a closer look

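For each miRNA, strand ratio and seed the report names, the 8 TIM values were examined for a library that stands apart, measured as its gap to the nearest other library divided by the whole range. Of 135 groups of 8 values examined, 26 passed Dixon's 95% critical value. That value assumes normally distributed values, while the gaps of miRNAs and seeds were taken on CPM and not on log2. Several groups also share reads, and some miRNAs were named for their spread among tumors. The 6.75 that 1 in 20 would give is therefore no valid count for comparison. All but the 5p/3p ratio of miR-433 stood apart on the high side. TIM 1 stood apart for miR-196a-1-3p (0.584), miR-378a-5p (0.565), miR-1a-3p (0.996) and miR-206-3p (0.999). In TIM 1, miR-1a-3p reached 22257 CPM and miR-206-3p 455 CPM, against at most 163 and 0.715 CPM in the other tumors. TIM 2 stood apart for miR-365-3p (0.810), miR-3099-3p (0.652), miR-222-3p (0.554), miR-146a-5p (0.654), miR-193b-3p (0.609), miR-221-3p (0.744) and the sum over the seed GCUACAU (0.701). In TIM 4 it was miR-202-5p (0.742), miR-217-5p (0.940) and the 5p/3p ratio of let-7e (0.553), where miR-217-5p is a miRNA of the exocrine pancreas.

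TIM 5 stood apart for miR-181d-5p (0.895), miR-101a-3p (0.702) and the 5p/3p ratio of miR-433 (0.603), the last on the low side. TIM 6 did so for miR-467a-5p (0.594) and miR-466e-3p (0.618). TIM 7 stood apart for miR-9-5p (0.536), miR-182-5p (0.873), miR-7a-5p (0.553), miR-183-5p (0.778) and miR-96-5p (0.845), and the 3 miRNAs of the cluster of miR-183, miR-96 and miR-182 among them share 1 transcript and do not count as separate observations. In TIM 8 it was miR-148a-3p (0.588) and miR-196a-5p (0.753). No library was left out for these values, and the fits without each of them are given with the processing.

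The difference between TIM and TI itself passed the test (limma, Benjamini-Hochberg) for 12 of the miRNAs named. On the log2 scale, TIM minus TI, it was 5.02 for miR-467a-5p (adjusted p = 0.0014), 4.56 for miR-669c-5p (0.0013), 2.68 for miR-467a-3p (0.0045), 2.05 for miR-466b-3p (0.016), 1.45 for miR-466c-3p (0.018) and 0.72 for miR-466e-3p (0.035), all of the Sfmbt2 intron. Neither miR-467a-5p nor miR-669c-5p was called against AG (adjusted p = 0.71 and 0.24). For both, every TI library but TI 5 lay below all AG and all TIM libraries. TI 5 had 213 CPM of miR-467a-5p and 68.5 CPM of miR-669c-5p, within the TIM ranges of 61.9 to 822 and 27.7 to 168 CPM. Their AG libraries had 128 to 162 and 27.8 to 34.5 CPM. It was 1.02 for miR-760-3p (0.019) and 0.99 for miR-12194-3p (0.025). TIM was lower, with -4.503 for miR-196a-5p (0.0014), -1.53 for miR-203-3p (0.0077), -0.80 for miR-16-5p (0.013) and -2.06 for miR-344d-3-5p (0.013).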

How the results depend on the processing

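No paired analysis was made, because the adrenal glands were labelled CRE - and the tumors CRE +, so the groups come from different mice. Against 373 calls, the alternatives gave 274 (a filter of 10 CPM, 456 miRNAs tested) to 423 (DESeq2), with 40.4% (without a filter) to 65.7% (miR-148a-3p excluded from the totals) of them higher in TIM, and leaving out 1 library gave 242 (AG 1) to 381. Of the 61 called miRNAs chosen by the rule, 49 kept their direction and their call in all alternatives and with each library left out, as did 5 of 10 strand ratios and 9 of 10 seeds, and 11 of 23 called miRNAs named after their values were seen. Calls of strand ratios were 27 of 129 with a filter of 10 CPM, which tests fewer hairpins, and 31 (without AG 1) to 55 with 1 library left out. Calls in the same direction against AG and against TI, 8 in all, were 5 with a pseudocount of 5, 4 without a filter, 5 at 10 CPM, 43 without TMM, 1 in edgeR, 26 in DESeq2 and 3 to 12 with 1 library left out, and the cause was not tested. Except for the call of miR-148b-3p, which had 0.026 with miR-148a-3p excluded from the totals, none of the 373 called miRNAs turned its direction where it was tested, while 2 and 1 of the 50 called strand ratios did so with pseudocounts of 0.1 and 5.

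Uncalled values did turn. Without TMM and without miR-148a-3p in the totals, miR-127-3p had 0.25 and 0.50, miR-27b-3p 0.027 and 0.28, miR-96-5p 0.25 and 0.43, miR-411-5p 0.23 and 0.48, let-7i-5p 0.29 and 0.54, and miR-16-5p 0.32 and 0.57, and let-7c-5p had 0.23 in the latter. In edgeR and DESeq2, miR-182-5p had 1.82 and 1.69 and miR-96-5p 1.39 and 1.27, and miR-96-5p had 0.26 with a pseudocount of 5. miR-127-3p had 0.038 in edgeR, and in DESeq2 miR-1a-3p had -0.58 and miR-206-3p -0.12. With 1 library left out, the values ran over -0.31 to 0.061 for miR-127-3p, -0.59 to 0.59 for miR-1a-3p, -0.046 to 1.15 for miR-206-3p, -0.26 to 1.17 for miR-183-5p, -0.69 to 1.13 for miR-96-5p, -0.039 to 0.34 for miR-379-5p, -0.40 to 0.030 for miR-411-5p, -0.12 to 0.049 for let-7i-5p and -0.14 to 0.11 for miR-16-5p. With 3 adrenal glands of 1 strain background, tumors at mixed sites and whole tissue, the comparison limits what the calls describe. Below 0.139 CPM in AG and 0.209 CPM in the shallowest tumor a miRNA rests on fewer than 3 reads.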

Other observations

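Calls were counted for chromosomes 12, 11 and X, which held the most tested miRNAs, and their spread over the chromosomes was not tested. Of all 726 tested miRNAs, 25.5% were higher and 25.9% lower in TIM. Of the 120 tested miRNAs on chromosome 12, 73 were higher and 9 lower in TIM, and of the 24 outside the Dlk1-Dio3 list 3 were higher and 8 lower. On chromosome 11, 6 of 58 were higher and 22 lower (median fold change -0.85), and on the X chromosome 6 of 77 were higher and 23 lower (median 0.20). miRNAs of 1 cluster share a transcript, so these counts are not independent.

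The tumors differed in how far they lay from the adrenal glands. Among the 373 called miRNAs, TIM 2 was nearer to the AG mean than to the TIM mean for 92 and TIM 5 for 78, against 13 to 40 for the other 6 tumors. The AG libraries were nearer to the TIM mean for 2 to 8. Summed over the smooth muscle miRNAs, TIM 5 had the highest level among tumors (9.67% of the reads), and over the endothelial and stromal miRNAs TIM 2 had it (1.01% and 0.220%). Whether these levels and the position of the libraries are linked was not tested.

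A few miRNAs were read in 1 group only. Besides miR-126b-3p, the rest were absent from all 3 AG libraries. miR-344f-5p had 60 to 229 reads in the tumors and was at least 35.5-fold higher against 3 reads in each AG library. miR-3078-5p had 53 to 131 reads and was at least 30.0-fold higher, miR-490-5p 4 to 71 reads and at least 11.003-fold, and miR-128-2-5p 12 to 40 reads and at least 7.63-fold. These bounds hold for the tumors as a group and not for each tumor, since the lowest tumor had 4 reads of miR-490-5p. For miR-344d-1-5p, with 1 to 9 reads in the tumors, no difference was called.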
